A study of Mus musculus with 5 samples.

Results

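Slpi encodes the secretory leukocyte protease inhibitor, a small secreted protein, and is 1 of the 33456 genes in the count tables. It was chosen by measured values of these same data, its rise with 2NBDG staining and its level in IgG cells. Its ratio between 2NBDG+ and 2NBDG- libraries and its level in IgG against IgM or IgA cells are therefore given as descriptions, with no test. Tests are given only for IgA against IgM and between IgG subclasses.

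The data are single-cell RNA counts (10x Chromium 3′ kit, version 2) of plasma cells, the antibody-secreting cells of the B lineage. All cells came from untreated, unimmunized male C57Bl6/N mice of 8 to 12 weeks, 3 mice pooled per library. They were sorted in 2 rounds as CD138-high, Ly6g- and CD11c-. There were 5 libraries, 1 per gate. The 4 spleen gates were B220+2NBDG- (1215 cells used), B220-2NBDG- (1295 cells), B220+2NBDG+ (1126 cells) and B220-2NBDG+ (894 cells), and the bone marrow gate was B220-2NBDG+ (938 cells). 2NBDG is a fluorescent glucose analog that cells take up, and B220 is an isoform of the surface phosphatase CD45 that many plasma cells lose. With 1 library per gate, a difference between gates had no replicate, and intervals on it cover counting error only.

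Slpi belongs to the family of proteins with a WAP domain (whey acidic protein), a fold held by disulfide bonds. Its product is secreted by epithelia, neutrophils and macrophages and blocks serine proteases such as neutrophil elastase and cathepsin G. It is also known to dampen NF-kB signalling in macrophages and to bind annexin A2, scramblase 1 and progranulin. Plasma cells secrete antibody in bulk and keep their secretory machinery high through the transcription factor Xbp1. IgM is made before class switching, and IgA and the IgG subclasses after it.

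Slpi (ENSMUSG00000017002) lies on the minus strand of chromosome 2, at chr2:164354070-164389095 in GRCm38 by GENCODE M21. The main transcript, Slpi-201, spans chr2:164354070-164356507 in 4 exons, which is also the span of the RefSeq gene. A longer transcript, Slpi-203, starts upstream at position 164389095. A 3′ kit does not tell these transcripts apart here. The 1 other annotated gene inside this span, the microRNA gene Mir7678, had 1 UMI (unique molecular identifier, a count of 1 RNA molecule) in all libraries.

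The 250 bases before the start of the main transcript are shown because Xbp1 was among the genes most like Slpi over the groups of cells described below (Spearman's rho 0.80 over 15 groups). From cell to cell within those groups it did not follow Slpi (mean rho -0.002, above 0 in 7 of 15 groups). The sequence is from RefSeq, GRCm38.p6, minus strand, chr2:164356508-164356757, printed 5′ to 3′. Capitals mark the overlapping matches to CCACG, a core of the sites that XBP1 binds, and to the E-box CACGTG.
Slpi: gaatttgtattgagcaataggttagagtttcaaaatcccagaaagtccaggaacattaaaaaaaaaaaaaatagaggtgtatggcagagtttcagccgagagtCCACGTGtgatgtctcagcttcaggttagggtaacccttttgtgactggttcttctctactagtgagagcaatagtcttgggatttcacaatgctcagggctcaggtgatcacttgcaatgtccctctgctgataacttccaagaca
CCACG matched once, from -147 to -143 relative to the start, and 28.3% of 32851 promoter windows of this length held it on either strand. CACGTG matched once, from -146 to -141, within the same stretch, and 6.02% of the windows held it. The kappaB consensus, TTCNNNGAA and ATGCAAAT had 0 matches on either strand, against 5.001%, 7.02% and 1.60% of the windows. A match is a description of these letters and not a binding site.

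The libraries held between 9451886 and 15591435 UMIs, with a median of 9829 to 15501.5 UMIs per cell. All 5476 deposited barcodes passed the filter, pairs of libraries shared 0 to 4 barcodes, and 8 T cell-like cells were left out, 7 of them from the B220+2NBDG- library and 1 from the B220-2NBDG- library. The markers of plasma cells summed to between 117200 and 306790 CPM, which here are counts per 1000000 non-immunoglobulin UMIs, since antibody transcripts take up much of each cell's RNA. Ptprc, which encodes CD45, stood at 80.1, 57.3, 61.2 and 48.6 CPM in the 4 spleen libraries in the order above and at 38.9 in bone marrow, and the 3′ counts do not separate the B220 isoform. Neutrophils, macrophages and epithelia are known sources of Slpi, so their markers were measured in the same libraries. The 12 neutrophil markers summed to between 0.9001 and 4.25 CPM, with Ltf, Mmp8 and Lcn2 at 0. The 12 markers of macrophages and monocytes summed to between 27.3 and 43.7 CPM, led by Cd68, with Adgre1 and Fcgr1 at 0. The 11 stromal or epithelial markers summed to 138, 168, 215, 207 and 236 CPM in the 5 libraries, with Col1a1, Pdgfrb and Krt8 at 0. Epcam, which encodes an epithelial adhesion molecule, led them at 102, 135, 175, 173 and 209 CPM and was higher in the 2NBDG+ libraries, as Slpi was. The part of these markers in the Slpi levels was not tested.

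Slpi was among the most abundant non-immunoglobulin transcripts of these plasma cells. Slpi stood at 11364 CPM in the B220+2NBDG- library and at 3904 CPM in the B220-2NBDG- library. It stood at 23803 CPM in the B220+2NBDG+ library, at 10312 CPM in the B220-2NBDG+ spleen library and at 19639 CPM in the bone marrow library. Both 2NBDG+ spleen libraries were thus above their 2NBDG- partners, and the B220+ libraries above the B220- ones. By level Slpi ranked 6, 14, 3, 5 and 3 among all non-immunoglobulin genes in that order. Between 19969 and 130590 Slpi UMIs stood behind these values, so that counting error was small.

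The rest of the WAP family was nearly silent. Of the 23 genes of the family, 16 had no UMI in any library and 22, all but Slpi, stayed under 5 CPM everywhere. Wfdc17 had 9 UMIs in all 5 libraries and Wfikkn2 had 8. Serine proteases, a class that includes targets of Slpi, were also close to absent. Of 22 listed genes, 13 had no UMI and 20 stayed under 5 CPM in every library. Elane, which encodes neutrophil elastase, had 1 UMI in all, in the bone marrow library, and Ctsg, which encodes cathepsin G, had none. The 2 exceptions were Gzma (granzyme A), at 3.600 to 7.82 CPM, and Prss57, a protease of neutrophil granules, at 2.28 to 8.99 CPM.

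Slpi was very unevenly spread over the cells of each library. Each cell was thinned at random to 1000 non-immunoglobulin UMIs, so that cells of different depth can be compared. The median cell then held 2 Slpi UMIs in the B220+2NBDG- library, 1 in B220-2NBDG-, 8 in B220+2NBDG+, 4 in B220-2NBDG+ spleen and 7 in bone marrow. The cell with the most Slpi held 301, 256, 284, 322 and 309 of its 1000 UMIs in the same order. In every library some cells thus gave over 25% of their non-immunoglobulin UMIs to this 1 gene. The 10% of cells with the most Slpi held 66.1%, 68.0%, 52.2%, 57.4% and 56.7% of the thinned Slpi UMIs. Among genes with a mean within 2-fold of its own (4 to 67 genes per library, Slpi included), Slpi had the highest squared coefficient of variation in each library, at 5.51, 12.0, 2.67, 5.93 and 4.20, where the others had medians of 0.328 to 0.575.

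The share of cells with any Slpi UMI followed the 2NBDG gates. After thinning it was 67.3% in B220+2NBDG- (95% exact Clopper-Pearson interval 64.5% to 69.9%), 56.1% in B220-2NBDG- (53.3% to 58.8%) and 98.8% in B220+2NBDG+ (98.0% to 99.4%). It was 81.6% in B220-2NBDG+ spleen (78.9% to 84.1%) and 97.9% in bone marrow (96.7% to 98.7%). Without thinning the shares were 90.2%, 81.2%, 99.9%, 94.1% and 100%. Thinning left out 2 to 13 shallow cells per library. In the 8 T cell-like cells, which are not known to make Slpi, 50% had a UMI without thinning (interval 15.7% to 84.3%), with 16 UMIs in all, 294 CPM, at a median depth of 5692 non-immunoglobulin UMIs. The plasma cells had medians of 3698 to 5910. None of these T cell-like cells came from a 2NBDG+ library, so they give no level of free RNA there.

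Free RNA in the droplets was estimated instead, from heavy-chain UMIs of isotypes other than the one called. Predicted doublets were kept, and UMIs from doublets or mixed cells were not told apart from free RNA. An IgM cell held on average 13.8 UMIs of IgG constant genes in B220+2NBDG-, 6.95 in B220-2NBDG-, 153 in B220+2NBDG+, 10.9 in B220-2NBDG+ spleen and 28.4 in bone marrow. These are 0.882%, 0.399%, 5.83%, 0.494% and 1.21% of the numbers in IgG cells of the same library. In the B220+2NBDG+ and bone marrow libraries, where these values were highest, the IgM cell with the least Slpi still held 2 Slpi UMIs, and in the other 3 libraries it held 0. Shares of cells with a UMI near 100% in those 2 libraries are therefore not read as shares of cells that express the gene. The Slpi that foreign heavy-chain RNA would bring along at the library's mean make-up came to 8.23%, 9.67%, 32.1%, 6.24% and 23.3% of the Slpi UMIs of IgM cells in the same order. For IgG cells it came to 0.644% to 5.60%.

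Slpi stood higher in IgG cells than in IgM or IgA cells of every library. Isotypes were called where 1 constant gene gave at least 70% of at least 10 heavy-chain UMIs. In IgM cells Slpi stood at 3588, 2682, 7884, 5921 and 9194 CPM in the 5 libraries (B220+2NBDG-, B220-2NBDG-, B220+2NBDG+, B220-2NBDG+ spleen, bone marrow). In IgA cells it stood at 4758, 1034, 6837, 6347 and 9999 CPM. In IgG cells it stood at 24068, 25080, 40605, 38284 and 103751 CPM. The lowest of these summed IgG values was above the highest summed IgM or IgA value. Single cells of these isotypes did overlap, as given below. The share of all genes with sums separated in this way was not counted. IgG3 sums fell below some IgM and IgA sums, at 8647 CPM in B220-2NBDG+ spleen and 5269 CPM in bone marrow. IgG3 cells were 3.64-, 4.42-, 1.86- and 1.46-fold above IgM cells in the 4 spleen libraries. Per library, IgG over IgM was 6.71-, 9.35-, 5.15-, 6.47- and 11.3-fold, with a median of 6.71-fold (log2 2.75, SD 0.45, n = 5 libraries, higher in 5 of 5). The share of all tested genes at least 2-fold higher in IgG than IgM cells was 0.642%, 2.37%, 1.32%, 0.736% and 0.303%. Slpi ranked 1 by this ratio in 4 of the 5 libraries and 9 of 3850 genes in B220+2NBDG+. These ratios chose the gene.

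**Figure D1:**
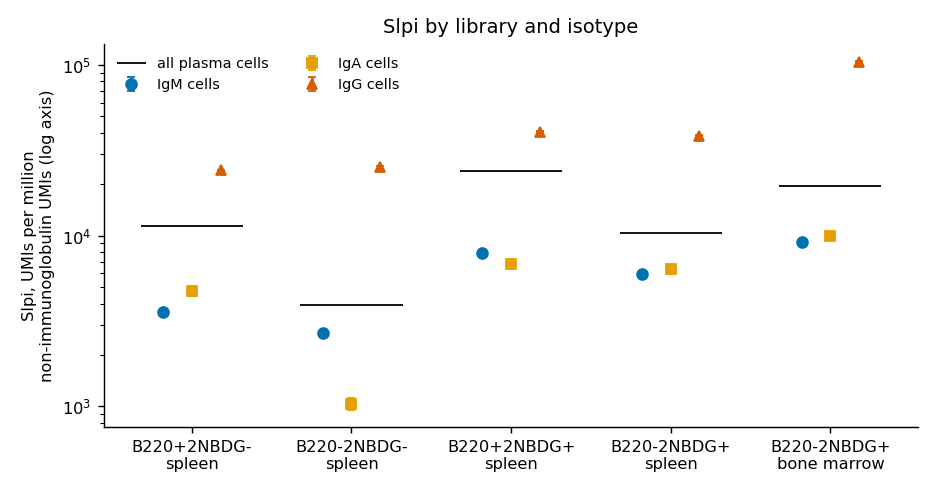
Slpi in CPM (log axis) for IgM, IgA and IgG cells of the 5 libraries; black lines give all plasma cells of a library, and bars are 95% Poisson intervals, mostly smaller than the symbols. IgG cells sit between 24068 and 103751, above every IgM and IgA value (1034 to 9999).

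IgG cells were a small part of 3 libraries and still held much of their Slpi. They made up 34.3% of cells and held 77.5% of Slpi UMIs in B220+2NBDG-, 5.71% and 39.5% in B220-2NBDG-, where IgM cells held 55.8%, and 49.02% and 79.1% in B220+2NBDG+. In B220-2NBDG+ spleen they made up 13.1% of cells and held 46.7% of Slpi UMIs. In bone marrow, where IgA cells made up 59.0% of cells, IgG cells were 8.96% of cells and held 55.6% of Slpi UMIs.

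Cells with very high Slpi were mostly IgG cells. Cells with at least 50 Slpi UMIs in 1000 made up 17.7%, 12.5%, 26.0%, 20.7% and 61.0% of IgG cells in the 5 libraries. Among IgM cells they made up 0.142%, 0.187%, 0.913%, 0% (0 of 557 cells, which allows a share of up to 0.539%) and 2.39%. Of the 329 such cells in all 5 libraries, 299, or 90.9%, were IgG, 14 IgM, 7 IgA and 9 had no call. The cut at 50 was chosen after seeing the data and marks a range, not a cell type. Most IgG cells were below it except in bone marrow: the median IgG cell held 9, 5.5, 17, 7 and 72.5 Slpi UMIs in 1000, and the median IgM cell 1, 1, 5, 3 and 5. In B220-2NBDG+ spleen 15.5% of IgG cells held no Slpi UMI after thinning, against 18.1% of IgM cells, so the lower ends of both isotypes overlapped there while the upper ends did not.

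**Figure D2:**
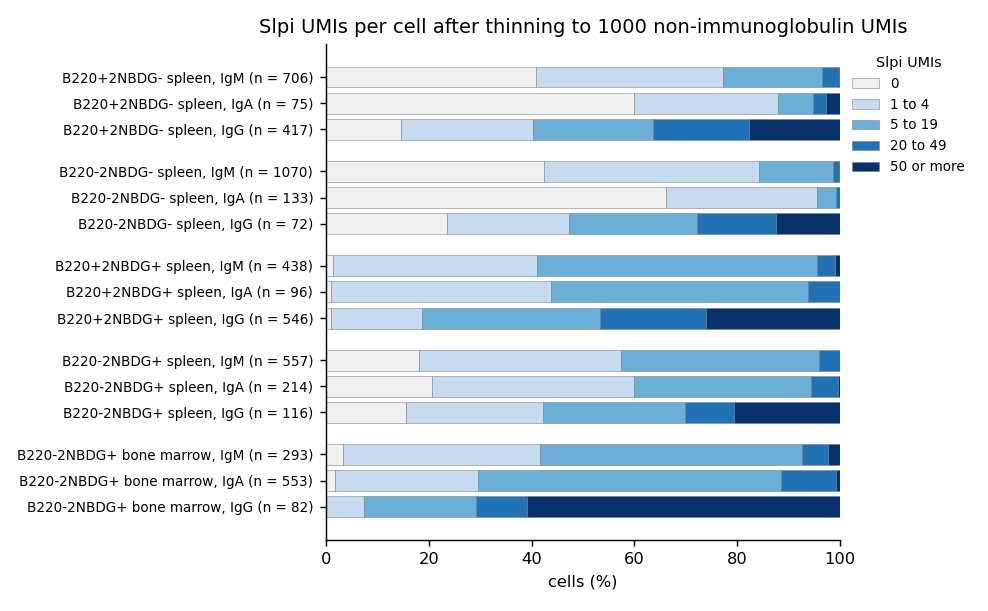
Share of cells (%) by the number of Slpi UMIs after thinning each cell to 1000 non-immunoglobulin UMIs, for IgM, IgA and IgG cells of each library, with the number of cells in brackets. The darkest bar, at least 50 UMIs, holds 12.5% to 61.0% of IgG cells and at most 2.67% of IgM or IgA cells.

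IgA cells, though class-switched like IgG cells, stood close to IgM cells. IgA over IgM was 1.33-fold in B220+2NBDG-, 0.386-fold in B220-2NBDG-, 0.867-fold in B220+2NBDG+, 1.07-fold in B220-2NBDG+ spleen and 1.09-fold in bone marrow. It was thus higher in 3 of 5 libraries, with a median log2 of 0.10 (SD 0.70, n = 5). The ratio in B220+2NBDG- rested on few cells: after thinning, the 10% of its IgA cells with the most Slpi held 86.7% of the UMIs, the mean was 3.51 UMIs against 3.54 in IgM cells, and 40% of IgA cells held a UMI against 59.2% of IgM cells. This contrast was not used to choose the gene. UMIs summed by library and isotype (27 sums of at least 10 cells, library as a block) were tested with edgeR's quasi-likelihood test, with Benjamini-Hochberg adjustment over 5102 genes. Slpi gave a log2 ratio of 0.05 (SE 0.25, 95% interval -0.46 to 0.55) and an adjusted p of 0.952. The interval runs from 0.727- to 1.47-fold and does not show that both isotypes have the same level. In the same edgeR test 414 genes (8.11%) were called higher and 462 (9.06%) lower in IgA cells. Without scaling factors between sums the split was 250 higher and 718 lower, and DESeq2 called 300 and 259. The sign for Slpi changed without those scaling factors (log2 -0.08) and without any of 3 libraries, B220+2NBDG-, B220-2NBDG+ spleen or bone marrow (log2 -0.04, -0.06 and -0.01).

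The lowest level of any isotype was that of IgA cells in the B220-2NBDG- library. Slpi was at 1034 CPM there, from 603 UMIs in 135 cells, against 4758 to 9999 CPM in the IgA cells of the other 4 libraries. After thinning, 33.8% of these IgA cells held a Slpi UMI, the median cell held 0 and the highest 43. In the IgA cells of B220+2NBDG- the share was 40%, with overlapping intervals (25.9% to 42.5% and 28.9% to 52.0%), the median was also 0 and the highest was 82. The free RNA estimate came to 26.4% of the Slpi UMIs in IgA cells of B220-2NBDG- and to 9.05% in those of B220+2NBDG-.

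Among IgG subclasses Slpi was lowest in IgG3 in all 4 spleen libraries and highest in IgG2c in 3 of them, with IgG1 highest in B220+2NBDG+. The subclass contrasts were not used to choose the gene, but the level in IgG cells as a whole was. IgG2c cells held 41554 of the 58701 Slpi UMIs of IgG cells in B220+2NBDG- and 70338 of 103261 in B220+2NBDG+. The tests of IgG2c against other subclasses are therefore not fully independent of that choice. IgG3 cells stood at 13060, 11845, 14632 and 8647 CPM in the 4 spleen libraries (55, 15, 76 and 16 cells). IgG2c cells stood at 27821, 34522, 47182 and 60238 CPM (252, 30, 309 and 50 cells). These ranges did not overlap, and IgG2c was 2.13-, 2.91-, 3.22- and 6.97-fold above IgG3 within the libraries, higher in 4 of 4. How many of all genes had subclass ranges apart in this way was not counted. In bone marrow IgG2c cells stood at 129753 CPM (21 cells) and the 4 IgG3 cells, too few for the test, at 5269 CPM.

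Over all libraries edgeR put IgG2c above IgG3 by a log2 ratio of 1.91 (SE 0.28, 95% interval 1.34 to 2.48), or 3.76-fold, with an adjusted p of 0.000395 over 5102 genes. Slpi was the 1 gene called higher (0.0196% of those tested), and Pld4, which encodes a nuclease of the endosome, was the 1 gene called lower, with a log2 ratio of -1.07 (SE 0.19, edgeR adjusted p 0.00436). DESeq2 gave Slpi a log2 ratio of 2.01 with an adjusted p of 0.156 and called 0 genes, with 235 at an unadjusted p under 0.05, so the call is lost there. The call held in edgeR without each library in turn, with adjusted p between 4.86e-05 and 0.0278.

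The other pairs of the 6 did not pass in the same edgeR fit. IgG1 over IgG3 had a log2 ratio of 1.29 (interval 0.65 to 1.94, adjusted p 0.161), and IgG2b over IgG3 1.09 (0.53 to 1.65, adjusted p 0.374). IgG1 cells numbered 5 to 32 per library, and their CPM was 16186, 33769, 48965, 42842 and 104661 in the 5 libraries. IgG2b cells stood at 21092, 18129, 36530, 19992 and 92974 CPM. IgG2c over IgG2b had a log2 ratio of 0.82 (interval 0.31 to 1.33, edgeR adjusted p 0.99995) and was above 1 in 5 of 5 libraries, by 1.29- to 3.01-fold. IgG2c over IgG1 was 0.62 (0.00 to 1.23, adjusted p 0.821) and IgG1 over IgG2b 0.20 (-0.39 to 0.80, adjusted p 0.945) in that fit. For these 3 pairs edgeR called 0 genes (0.0% in each direction), where 172, 310 and 307 genes had an unadjusted p under 0.05, and DESeq2 called 0, with 163, 284 and 278 under 0.05. For IgG2b over IgG3 both tools called 0 as well, with 251 genes in edgeR and 227 in DESeq2 under 0.05. For IgG1 over IgG3 edgeR called Gng5 higher and Hepacam2 lower, names given after their values were seen. Without the B220-2NBDG- library IgG1 over IgG3 passed (log2 1.47, edgeR adjusted p 0.0130).

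**Figure D3:**
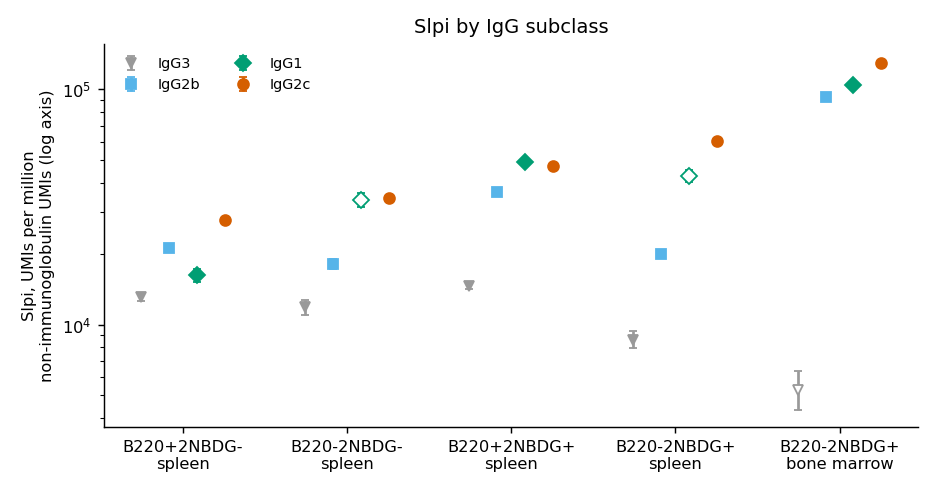
Slpi in CPM (log axis) by IgG subclass in the 5 libraries, with 95% Poisson intervals; open symbols are groups of fewer than 10 cells, which were not tested. IgG3 is the lowest subclass in every library, at 5269 to 14632, and IgG2c the highest in 4 of 5; in B220+2NBDG+ spleen IgG1 (48965) is above IgG2c (47182).

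Between libraries, Slpi was 2.09-fold higher with 2NBDG in B220+ spleen cells (counting interval 2.08 to 2.11) and 2.64-fold higher in B220- spleen cells (2.60 to 2.69). At least 2-fold higher were 1.15% and 0.895% of the genes tested, and Slpi ranked 41 of 3987 and 17 of 3687. The median gene moved by -0.17 and -0.08 on the log2 scale in these comparisons. Scaled to all UMIs, immunoglobulin included, the log2 ratio in B220+ cells was 0.48 in place of 1.07. These ratios chose the gene and carry no test.

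IgG cells were also more frequent in the 2NBDG+ gates, so the same ratios were taken within isotypes. In IgM cells Slpi was 2.20-fold higher with 2NBDG in B220+ cells and 2.21-fold higher in B220- cells. In IgG cells it was 1.69-fold and 1.53-fold higher. In IgA cells it was 1.44-fold higher in B220+ cells and 6.14-fold higher in B220- cells, the latter against the low IgA cells described above. With equal weight for the 3 isotypes the ratios were 1.71 and 1.76. By non-immunoglobulin UMIs the direction was thus the same in each isotype, while the gates' different isotype make-up moved with the ratio over all cells. With free RNA subtracted, the ratio in IgM cells became 1.63 in B220+ cells and 2.29 in B220- cells. That in IgA cells of B220+ spleen became 1.001. The direction in IgA cells of B220+ spleen also changed with the total used. As a share of all UMIs, Slpi was lower with 2NBDG there, at 0.254% against 0.2996%. IgG cells of B220+ spleen were at 1.37% against 1.30% on that scale, and IgM cells at 0.284% against 0.184%. In B220- spleen the 3 isotypes were all higher with 2NBDG on that scale.

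Within IgG cells the 2NBDG ratio differed by subclass. In B220+ cells it was 3.03 for IgG1 (10 cells in the 2NBDG- library), 1.73 for IgG2b, 1.70 for IgG2c and 1.12 for IgG3. In B220- cells it was 1.10 for IgG2b, 1.74 for IgG2c and 0.730 for IgG3 (counting interval 0.655 to 0.814, from 16 and 15 cells). IgG2c cells were above 1 in both gates, and IgG3 cells were close to or below 1. As a share of all UMIs, IgG3 cells of B220+ spleen were lower with 2NBDG, at 0.491% against 0.702%. IgG2c cells of B220+ spleen were still higher, at 1.63% against 1.51%. These differences between subclasses were not tested.

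The ratios between B220+ and B220- libraries were closer to 1 within IgG and IgM cells than over all cells. Over all cells Slpi was 2.31-fold higher in B220+ than in B220- cells of the 2NBDG+ gates and 2.91-fold higher in the 2NBDG- gates, where 2.45% and 5.91% of genes were at least 2-fold higher and the median gene moved by 0.14 and 0.24 on the log2 scale. Within IgG cells the ratios were 1.06 and 0.960, and within IgG2c cells 0.783 and 0.806. As a share of all UMIs, IgG cells of the 2NBDG- gates were higher with B220, at 1.30% against 0.880%. IgG2c cells of these gates were at 1.51% against 1.30%. By non-immunoglobulin UMIs other subclasses were above 1, IgG2b at 1.83 and 1.16 and IgG3 at 1.69 and 1.10. Within IgM cells the ratios were 1.33 and 1.34, and the former became 0.964 with free RNA subtracted. With equal weight for the isotypes they were 1.09 and 1.13. IgA cells of the 2NBDG- gates were the exception, at 4.5998-fold, again against the low IgA cells already described.

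Bone marrow plasma cells held more Slpi than splenic cells of the same gate. Over all cells of the B220-2NBDG+ gate the ratio was 1.90 (1.88 to 1.93), just short of the 2-fold rule, which 1.17% of genes passed, and the median gene moved by -0.16 on the log2 scale. Within isotypes it was 1.55 in IgM, 1.58 in IgA and 2.71 in IgG cells, and with equal weight for the isotypes 2.43. Within subclasses it was 4.65 in IgG2b cells (34 against 44 cells) and 2.15 in IgG2c cells (21 against 50 cells). The rise was thus larger in IgG cells than in the library as a whole, where IgG cells were scarce. With free RNA subtracted the ratios in IgM and IgA cells were 1.27 and 1.21, and that in IgG cells 2.69.

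**Figure D4:**
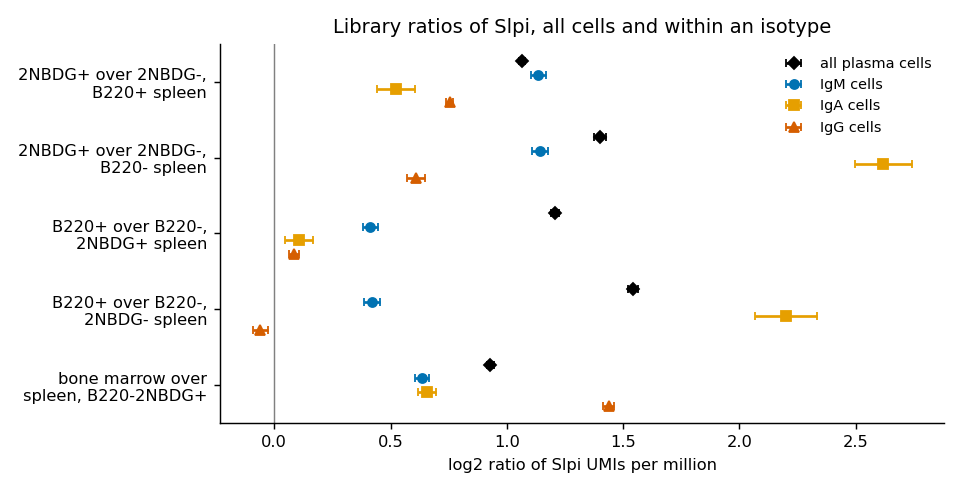
Log2 ratio of Slpi CPM for 5 pairs of libraries, over all plasma cells (diamonds) and within IgM, IgA and IgG cells, with 95% counting intervals. For B220 the diamonds sit at 1.21 and 1.54 and the IgG triangles at 0.08 and -0.06; for bone marrow the IgG triangle (1.44) is above the diamond (0.93).

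Dividing cells gave a smaller share of their non-immunoglobulin RNA to Slpi in the B220+2NBDG- library. The 175 cycling cell-like cells of the B220+2NBDG- library, a cluster led by cell-cycle genes, stood at 6813 CPM, and the other 1040 cells at 13185 CPM. As a share of all UMIs the values were closer, 0.509% and 0.626%. The cycling cells were also deeper, with a median of 9845 against 4208.5 non-immunoglobulin UMIs, and held 74.2 Slpi UMIs per cell against 60.4. After thinning, the median cycling cell held 1 Slpi UMI and the highest 78, against 2 and 301 among the rest. The other libraries held 0 to 18 such cells. Without cycling cells the 2NBDG log2 ratio in B220+ cells was 0.87. By light chain, IgM kappa cells of the B220-2NBDG- library stood at 2965 CPM (917 cells) and IgM lambda cells at 1108 CPM (113 cells).

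Other protease inhibitors were compared by the same 2-fold rule as Slpi. Of 34 such genes, 11 had no UMI and 20 stayed under 5 CPM, and 7 or 8 could be compared between libraries. With 2NBDG, 1 of 8 was at least 2-fold higher in B220+ cells and 0 of 8 in B220- cells, beside 1.15% and 0.895% of all genes. With so few genes compared, these counts are no result about the list. The median log2 ratios of the 8 were 0.70 and 0.16, against -0.17 and -0.08 for all genes, and by B220 those of the genes compared were -0.04 in the 2NBDG+ and -0.62 in the 2NBDG- gates, against 0.14 and 0.24. The 1 gene past the rule with 2NBDG was Cst6, a secreted inhibitor of lysosomal cysteine proteases. It stood at 12.9 and 40.3 CPM in the 2NBDG- and 2NBDG+ libraries of B220+ cells. In those of B220- cells it stood at 19.2 and 36.7 CPM. Cst3, the secreted cystatin C, went from 816 to 1582 CPM with 2NBDG in B220+ cells and stood at 1503 and 1514 CPM in B220- cells. Serpina3f and Serpina3g, members of the serpin family of protease inhibitors, were lower in B220+ cells: Serpina3f was at 28.1 CPM in B220+2NBDG+ and 66.1 CPM in B220-2NBDG+ spleen, and Serpina3g at 99.5 and 217 CPM. At least 2-fold lower in B220+ cells were 1.48% of all genes in the 2NBDG+ gates and 3.18% in the 2NBDG- gates. In IgA against IgM cells 9 of the 34 were tested with edgeR, and 2 were called higher and 3 lower, beside 8.11% and 9.06% of all genes. Spint2, a membrane inhibitor of serine proteases, was lower there with a log2 ratio of -0.64 (SE 0.11, edgeR adjusted p 2.52e-05), and Cst6 higher with 1.67 (SE 0.24, adjusted p 1.92e-06).

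The reported binding partners of Slpi went different ways. Anxa2, which encodes annexin A2, stood at 85.1, 79.2, 17.1, 1.52 and 1.06 CPM in the 5 libraries, high in the 2NBDG- libraries and lower in the others. At least 2-fold lower with 2NBDG were 4.61% of all genes in B220+ and 2.12% in B220- cells. S100a10, its partner subunit, stood at 211, 165, 151, 75.4 and 59.5 CPM. Both were higher in IgA than IgM cells by edgeR, Anxa2 with a log2 ratio of 5.69 (SE 0.32, adjusted p 8.35e-16) and S100a10 with 1.76 (SE 0.21, adjusted p 4.44e-08). Grn, which encodes progranulin, stood at 243, 196, 404, 268 and 224 CPM and was lower in IgA cells with a log2 ratio of -1.23 (SE 0.21, edgeR adjusted p 3.67e-05). Plscr1 (scramblase 1) stayed between 6.37 and 21.3 CPM and Cd4 between 0.150 and 9.56 CPM. In the edgeR test 4 of these 5 genes were covered, and 2 were called higher and 1 lower in IgA cells, beside the same 8.11% and 9.06% of all genes. Prss57 was called higher in IgA cells too, with a log2 ratio of 5.75 (SE 0.40, edgeR adjusted p 6.20e-12), the 1 serine protease tested.

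None of the NF-kB and Toll-like receptor genes that could be compared passed the 2-fold rule with 2NBDG. Of 29 genes, 7 could be compared in B220+ and 9 in B220- cells, and 0 were at least 2-fold higher or lower. Of all genes, 1.15% were at least 2-fold higher and 4.61% lower in B220+ cells. In B220- cells these shares were 0.895% and 2.12%. With so few genes compared, a count of 0 is no result about the list. The median log2 ratios of the compared genes were 0.15 and -0.11, against -0.17 and -0.08 for all genes. By B220 in the 2NBDG- gates, 3 of 9 were at least 2-fold lower in B220+ cells, beside 3.18% of all genes. These were Nfkb2 (16.95 against 38.9 CPM) and Relb (12.9 against 29.7 CPM), subunits of the alternative pathway, and Nfkbia (231 against 465.6 CPM), the inhibitor induced by NF-kB. In the 2NBDG+ gates 1 of 7 was, Nfkb2 (14.9 against 35.7 CPM), beside 1.48% of all genes. In IgA against IgM cells 13 were tested with edgeR, and 1 was called higher and 3 lower, beside 8.11% and 9.06% of all genes. Among those lower was Ly96, the partner of Toll-like receptor 4, with a log2 ratio of -0.59 (SE 0.11, adjusted p 9.04e-05).

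The genes most like Slpi were sought over the 15 groups of cells made by 5 libraries and 3 isotypes, by Spearman's rho among 1114 genes of at least 100 CPM in their mean. These groups share libraries and Slpi was chosen for this pattern, so the values are a description with no p. The 10 highest were Gpx1 (0.84), Aga (0.83), Xbp1 (0.80), Grn (0.79), Pld3 (0.78), Uqcc2 (0.76), Serinc3 (0.75), Sdf2 (0.73), Fcrla (0.73) and Prdx5 (0.73). Gpx1 and Prdx5 encode peroxidases, Aga and Pld3 lysosomal enzymes, and Xbp1 the transcription factor of the secretory program. The 5 lowest were Mef2c, Gas5, Shisa5, Ptprcap and Sri, the last at -0.87. Xbp1 ranged from 2450 to 5268 CPM over the groups, a narrower range than that of Slpi (1034 to 103751 CPM). Grn ranged from 22.1 to 578 CPM. By Pearson's r on log2 values 7 of the 10 stayed among the top 10, and with Jchain, the joining chain of IgM and IgA, left out of the totals 4 did.

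**Figure D5:**
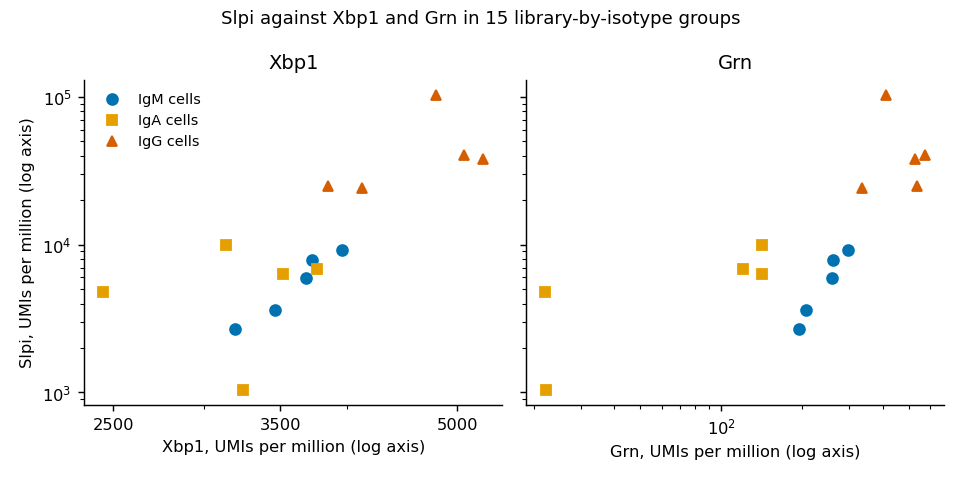
Slpi against Xbp1 (left) and Grn (right) in CPM, both axes log, for 15 groups of cells by library and isotype. IgG groups (triangles) lie at the upper right in both panels; IgA groups (squares) reach the lowest Grn values, 22.1 and 22.3.

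From cell to cell within a group, no gene followed Slpi closely. The mean Spearman rho over the 15 groups, each of at least 50 cells, was at most 0.20, for Tmem176b, and at least -0.16, for Sec61g, which encodes a subunit of the translocon. Such weak values in sparse counts are no finding. B2m (0.18), Tmem176a (0.17), Malat1 (0.15) and Chchd10 (0.14) followed Tmem176b, and Cd81, Cst3, Prg2, Adk and Slc3a2 stood between 0.11 and 0.13. Sub1, Rpl39, Rps15a and Rps19 were the next lowest. Grn had a mean rho of 0.04 and Xbp1, as given above, one near 0. The depth of a cell had rho of -0.07 to 0.56 with Slpi, the highest in IgG cells of bone marrow (82 cells). The immunoglobulin share of a cell's UMIs had rho of -0.36 to 0.50 with Slpi and the mitochondrial share rho of -0.49 to 0.11. The 0.50 and the -0.49 were both in IgA cells of B220-2NBDG- (133 cells). The part of these measures in the Slpi levels was not tested.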

How the data were processed

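The deposited tables hold raw UMI counts per gene and cell, made by the authors with Cell Ranger 2.1 on GRCm38, per the submitters' processing notes; the annotation is not given in the sources used here. The gene and the gene lists were chosen with earlier results of these data known. Cells with at least 500 UMIs, 200 genes and under 10% mitochondrial UMIs were kept (all passed), and 8 T cell-like cells were removed after clustering with scanpy 1.11.5 (2000 variable genes, 30 components, 15 neighbours, resolution 1). Predicted doublets (1.26% of cells) were kept and left out in an alternative. CPM used non-immunoglobulin UMIs, leaving out 266 immunoglobulin genes. Ratios between libraries have exact 95% counting intervals; a gene entered the 2-fold rule where its higher library had 25 CPM and 50 UMIs or more, with counts under 3 raised to 3. Sums by library and isotype were tested with edgeR 4.0.16 (TMM, filterByExpr, 17 residual degrees of freedom, adjusted p under 0.05), with DESeq2 1.42.0 as an alternative. The p-values measure how differences between isotypes or subclasses vary from library to library over these 5 libraries, each a different gate from pooled mice. With 1 library per gate, they do not measure the spread between pools of mice of the same gate. Differences in level between libraries are taken out by the block. Named genes were Slpi, the genes most and least like it and the members of fixed lists. Tests and ratios were checked on simulated data. Totals, isotype calls, thinning, cells and libraries were varied.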

Additional observations from a re-analysis of the deposited data

Results flagged for a closer look

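Several values of Slpi went against the direction seen over all cells of the same libraries, with counting intervals that exclude no difference; none of these differences between groups was tested. With 2NBDG in B220- spleen, Slpi was higher over all cells but lower in IgG3 cells (log2 ratio -0.45, from 16 and 15 cells). With B220 in the 2NBDG+ gates it was higher over all cells but lower in IgG2c cells (-0.35). In the 2NBDG- gates it was lower with B220 in IgG cells (-0.059) and in IgG2c cells (-0.31), against a rise over all cells. Both signs in the 2NBDG- gates changed with the total used. As a share of all UMIs, Slpi was 1.30% in B220+ against 0.880% in B220- IgG cells, and 1.51% against 1.30% in IgG2c cells. IgG2b and IgG3 cells were higher with B220 in both gates.

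IgA over IgM was negative in B220-2NBDG- (log2 ratio -1.37) and in B220+2NBDG+ spleen (-0.21) and positive in the other 3 libraries. None of the 5 IgA over IgM ratios was a statistical outlier by Dixon's test (0.656, critical value 0.710).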

How the results depend on the processing

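No paired analysis was possible because the labels carry no replicate numbers and each gate is 1 library; this holds for comparisons between gates, while the tests of isotypes and subclasses had library as a block. Over all cells, the 2NBDG, B220 and bone marrow log2 ratios kept their direction under every total and cell set run. In the order of the report they were 0.48, 1.59, 0.96, 2.07 and 0.81 with all UMIs, 1.22, 1.48, 1.06, 1.32 and 0.98 without Jchain, and 1.15, 1.47, 1.11, 1.43 and 1.09 with TMM factors. Leaving Slpi out of the totals, chosen after seeing the data, moved the ratios for 2NBDG in B220+ and B220 in 2NBDG+ to 1.08 and 1.23. Without cycling cells, 2NBDG in B220+ and B220 in 2NBDG- came to 0.87 and 1.75, and without predicted doublets bone marrow came to 0.86.

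The IgG over IgM median log2 ratio was 2.72 to 2.99 without each library in turn, and that of IgA over IgM -0.053 to 0.11. With free RNA subtracted, also chosen after seeing the data, the IgA over IgM median was -0.010, and 2NBDG within IgM cells was 0.70 in B220+ and 1.20 in B220- cells. The share of cells with a Slpi UMI was 78.5%, 71.8%, 99.8%, 89.8% and 99.8% at 2000 UMIs per cell and 90.2%, 81.2%, 99.9%, 94.1% and 100% without thinning, so it moved with the depth used.

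In edgeR, IgA over IgM was -0.081 without TMM factors (adjusted p 0.865) and -0.065 to 0.26 without each library. The count of genes called between IgA and IgM was 876, 559 with DESeq2 and 660 to 863 without each library. Without a filter on low counts 5 of the 6 subclass pairs passed: IgG2c over IgG1 (0.75, adjusted p 2.01e-11), over IgG2b (0.84, adjusted p 7.97e-23) and over IgG3, and IgG1 (1.24, adjusted p 8.14e-32) and IgG2b (1.15, adjusted p 1.48e-36) over IgG3; the cause was not tested. Over their alternatives, adjusted p ran up to 1 for those pairs but IgG2c over IgG3, for which it ran up to the 0.156 of DESeq2 (log2 2.01). IgG1 over IgG2b was -0.077 at 90% dominance. Without each library in turn, log2 ratios were 0.42 to 0.82 (IgG2c over IgG1), 0.61 to 0.92 (over IgG2b), 1.62 to 2.14 (over IgG3), 0.07 to 0.48 (IgG1 over IgG2b), 1.07 to 1.72 (IgG1 over IgG3) and 0.99 to 1.24 (IgG2b over IgG3). The 2 genes called between IgG2c and IgG3 became 0 with DESeq2 (which gave Slpi an unadjusted p of 1.01e-05), 21 without the filter, 4 with 20 cells per sum, 1 at 90% dominance and 1 to 2 without each library. Of the 10 genes most like Slpi, 4 stayed without Jchain.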

Other observations

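Cells with no isotype call also held Slpi: 17078 CPM in B220+2NBDG- (11 cells), 6102 CPM in B220-2NBDG- (6 cells), 26056 CPM in B220+2NBDG+ (36 cells), 28223 CPM in B220-2NBDG+ spleen (5 cells) and 12837 CPM in bone marrow (7 cells).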
